A study of Mus musculus with 16 samples.

Results

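The 45 genes described here encode the machinery of mitosis: cyclins and Cdk1, mitotic kinases, the spindle checkpoint, the anaphase-promoting complex and its targets, kinetochore and spindle proteins, condensin, and the proteins that cut the cell apart. They were chosen by gene symbol from a list of mitosis genes, and all 45 of 45 were found, on 378 of the 144543 transcript entries used and among 29057 genes. These genes and the other lists below were chosen with earlier results of these data known. The counts of genes called below are therefore a description and not independent support. RNA was sequenced from primary cultures of the stromal-vascular fraction of fat from C57BL/6N mice that carry a reporter of Ucp1, the uncoupling protein of brown fat. In the order used below the 16 libraries are 4 of white (inguinal) cells with Fgf8b, 4 of white control cells, 4 of brown (interscapular) cells with Fgf8b and 4 of brown control cells. Fgf8b is a splice form of the secreted growth factor Fgf8, and the sources used here do not state its dose and time, what the control cells received or the age of the mice. The mice of all 4 groups carry the reporter. The design text calls the cells preadipocytes and the sample labels call them adipocytes. It speaks of 3 cultures for each kind of cell, against 4 libraries in each group, and does not say which libraries share a culture, so the p-values below measure the spread between these libraries, which may be technical.

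Mitosis begins when Cdk1, bound to a B-type cyclin, is switched on by Cdc25 phosphatases. Chromosomes are then condensed and attached to the spindle, the checkpoint holds the cell until every kinetochore is attached, and the anaphase-promoting complex (APC/C) marks securin and cyclin B for destruction so that the chromosomes part. Transcripts of this machinery build up late in the cell cycle and are low in resting cells, so in a culture they are read as a sign of how many cells are dividing. FGFs act through receptor tyrosine kinases and are mitogens for many mesenchymal cells, preadipocytes among them.

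Depth, recovered from the values, was 16.2 to 20.1 M reads in white Fgf8b, 15.6 to 19.8 M in white control, 14.6 to 16 M in brown Fgf8b and 13.7 to 16.1 M in brown control libraries. Between 186 and 12461 reads stood behind each member's representative transcript in each library. Of the 12 preadipocyte and fibroblast markers, Col1a1 reached 1809 RPKM, while Dpp4 reached at most 0.449 RPKM in any library. Of 8 mature adipocyte markers Lep, Cfd and Retn were at 0 in all 16 libraries, and Adipoq and Plin1 reached at most 0.118 and 0.0335 RPKM in any library, while Fabp4 and Lipe were above 0 in all 16, at up to 19.4 and 2.77 RPKM. The leukocyte gene Cd3e was at 0 in all 16 libraries, and Ptprc, Adgre1 (listed as Emr1) and Itgam were at 0 in 13, 15 and 13 of them, while Cd14 reached 8.33 and Lyz2 3.62 RPKM. Among 8 endothelial markers Pecam1 and Cldn5 reached at most 0.224 and 0.0514 RPKM, while Tek reached 9.84, Cdh5 2.16 and Kdr 1.01 RPKM. Tek, Cdh5 and Kdr were above 0 in all 16 libraries. Brown control library 15 stood apart: its genes lay a median of 0.161 log2 units from the mean of its group, against 0.065 to 0.095 in the other 15 libraries, and the 45 mitosis genes a median of 0.151, against 0.0242 to 0.0716. Without it 45 genes in white and 44 in brown cells were again called higher with Fgf8b, and the changes of Pttg1, Cenpf, Nusap1 and Smc4 in brown cells are given below with and without it.

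The mitosis genes were higher with Fgf8b in both kinds of cell. Their summed level was 2026 ± 33.4 RPKM in white Fgf8b and 1151 ± 24.0 RPKM in white control libraries, and 2080 ± 23.8 RPKM in brown Fgf8b and 1221 ± 12.8 RPKM in brown control libraries (SD, n = 4 each, one representative transcript per gene). RPKM counts reads per kilobase of transcript, scaled to the depth of the library. The lowest Fgf8b library, at 1978 RPKM, lay far above the highest control library, at 1235 RPKM. In white cells 45 of 45 genes were called higher by limma on log2(RPKM + 0.5) at a Benjamini-Hochberg adjusted p under 0.05 over the 15220 genes tested, and 0 lower, where 36.3% of all genes tested were called higher and 29.5% lower (65.7% either way). In brown cells 44 of 45 were called higher and 0 lower, where 36.7% of all genes tested were called higher and 34.7% lower (71.4% either way), and the gene that was not called was Pttg1. The median log2 fold change of the 45 was 0.78 in white cells, with a range of 0.33 to 1.16, and 0.75 in brown cells, with a range of 0.08 to 1.22. Over all genes tested the median was 0.04 in white and 0.01 in brown cells. A log2 fold change of 1 or more was reached by 6 of 45 genes in each depot. Of all 15220 genes tested, 668 in white and 763 in brown cells were called higher with such a change.

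The count did not depend on any single library: with each of the 16 left out in turn, 45 were called in white cells and 44 in brown cells every time. The single entries were also looked at. Of the 378 entries, 369 had a mean of at least 1 RPKM, and among those the 4 Fgf8b libraries all lay above the 4 control libraries on 366 entries in white and on 339 in brown cells. Entries of a gene can hold the same reads, and some had equal values, so they do not count as separate results. The share over all entries of the series was not counted, so these numbers have no background to be read against. In RNA of whole cultures more dividing cells and more of each transcript per dividing cell cannot be told apart. Markers of other cell types moved with the treatment too. The summed endothelial markers were 2.398 to 2.97 RPKM in white Fgf8b and 11.1 to 12.04 RPKM in white control libraries, and 1.51 to 1.89 RPKM in brown Fgf8b and 7.65 to 8.96 RPKM in brown control libraries. Tek made up most of that sum in the controls, and Pecam1 and Cldn5 stayed near 0 in every group. Cdh5 went against the sum, with means of 1.92 RPKM in white Fgf8b and 1.13 RPKM in white control libraries, and 0.844 RPKM in brown Fgf8b and 0.571 RPKM in brown control libraries. The summed adipocyte markers were 7.35 to 8.32 RPKM in white Fgf8b and 11.6 to 13.03 RPKM in white control libraries, and 12.6 to 15.7 RPKM in brown Fgf8b and 18.7 to 21.5 RPKM in brown control libraries. Fabp4 made up most of that sum in every group, and only 2 of the 8 adipocyte markers passed the filter for testing. Lipe averaged 2.03 RPKM in white Fgf8b and 2.24 RPKM in white control libraries, and 1.92 and 1.93 RPKM in brown Fgf8b and brown control libraries. For the leukocyte markers the sums were 6.81 to 7.62 RPKM and 5.30 to 6.13 RPKM in white Fgf8b and white control libraries, and 9.34 to 10.2 RPKM and 6.47 to 9.004 RPKM in brown Fgf8b and brown control libraries. The leukocyte markers did not move together: of 4 tested, 2 were called higher and 2 lower in each depot. Cd14 averaged 5.125 RPKM in white Fgf8b and 3.01 RPKM in white control libraries, and Lyz2 0.0919 and 1.225 RPKM. In brown Fgf8b and brown control libraries Cd14 averaged 7.87 and 3.58 RPKM and Lyz2 0.171 and 2.96 RPKM. The summed preadipocyte and fibroblast markers were 2919 to 3088 RPKM in white Fgf8b and 5776 to 6027 RPKM in white control libraries, and 1562 to 1639 RPKM in brown Fgf8b and 3913 to 4469 RPKM in brown control libraries. Its members did not move together: in white cells 5 of 12 were called higher and 7 lower and in brown cells 2 higher and 9 lower. Over all genes tested, 36.3% were called higher and 29.5% lower in white cells, and 36.7% and 34.7% in brown cells. Col1a1 averaged 415 RPKM in white Fgf8b and 1776 RPKM in white control libraries, and Thy1 746 RPKM in white Fgf8b and 269 RPKM in white control libraries. The part of these shifts in the result was not tested.

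**Figure D1:**
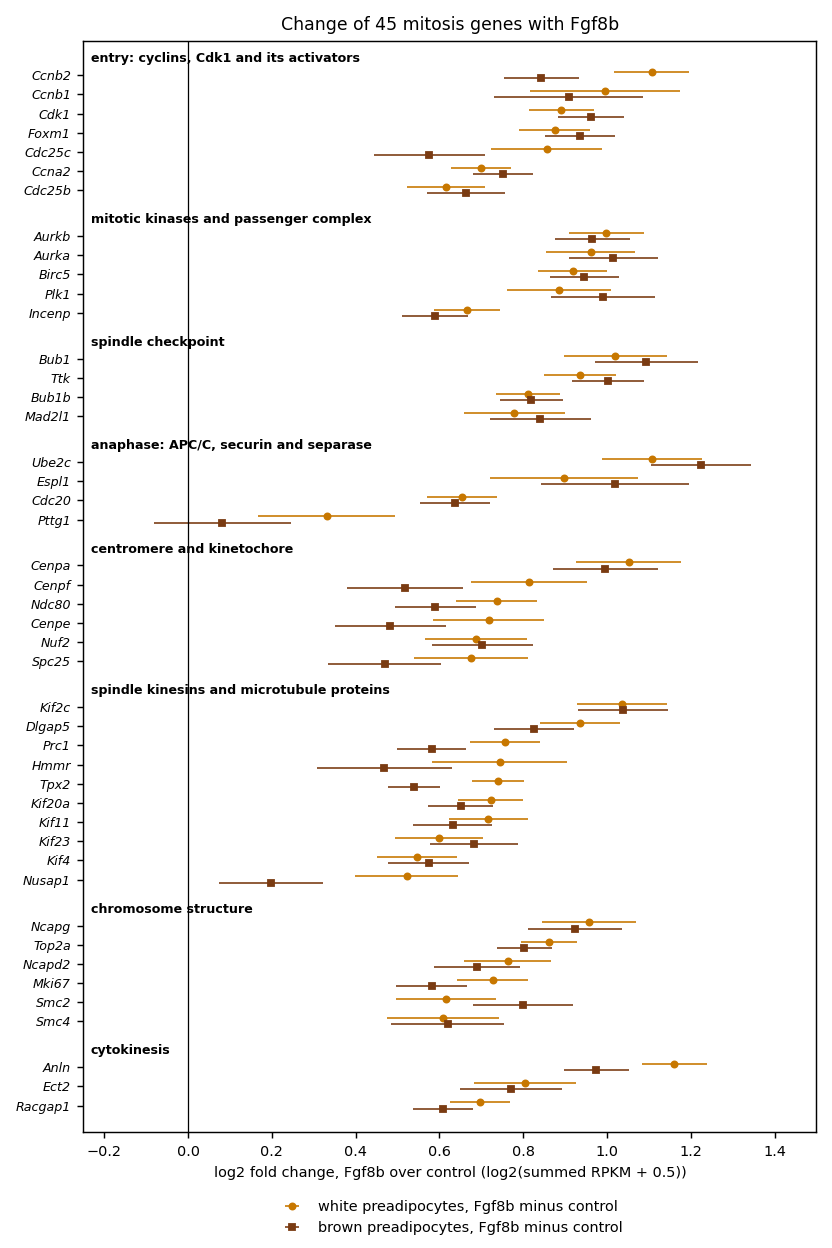
Log2 fold change of each of the 45 mitosis genes, Fgf8b over control (x axis, on log2(summed RPKM + 0.5)), in white cells (circles) and brown cells (squares), grouped by role, with 95% confidence intervals from limma. All 45 points in white cells and 44 of 45 in brown cells lie above 0 with their intervals, and the interval of Pttg1 in brown cells spans 0.

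Many genes of late cell cycle share promoter elements. The cell cycle genes homology region (CHR) and the CCAAT box are the elements through which the DREAM and MuvB-B-Myb-Foxm1 complexes and NF-Y act on such genes, and E2F sites are typical of genes of DNA replication. Promoters from RefSeq (build GRCm38.p6, 250 bases before to 50 after the start) were found for 36 of the 45 genes, 38 promoters in all, and were searched on both strands for the CHR cores TTTGAA and TTCGAA, for CCAAT, and for the E2F cores TTTGGCGC and TTTCGCGC. Words of different motifs can overlap by at most 1 base. A CHR core stood in 31 of 38 promoters (81.6%), against 13.6% of the 13562 promoters of all genes tested and 19.2% of the 32851 promoters in the table. CCAAT stood in 30 of 38 (78.9%), against 37.5% and 37.4%, and both words in 28 of 38 (73.7%), against 5.61% and 7.53%. The E2F cores stood in 2 of 38 (5.26%), those of Cdk1 and of Ncapd2, against 1.41% and 0.813%. Among 89 promoters of other mitosis genes 44.9% held a CHR core, 64.04% CCAAT, 29.2% both and 4.49% an E2F core. Among 20 promoters of DNA replication genes 25% held a CHR core, 65% CCAAT, 20% both and 35% an E2F core. Median GC content was 59.0% in the members' promoters, 60.7% in those of all genes tested and 52.7% in the whole table. These are matches of letters and not known binding sites.

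Promoters of 5 genes are printed as examples. Ube2c rose most in brown cells, Ccnb2 was among the genes that rose most in white cells, and Pttg1 and Nusap1 changed least. Top2a was taken for its level, the highest mean over all 16 libraries, and not for its change. The gene that rose most in white cells was Anln (log2 1.16, against 1.11 for Ccnb2). Its promoter, which held a CHR core and no CCAAT box, is not printed, so the examples do not stand for the whole range. Each run is 180 bases, from 150 before to 30 after the annotated start, read 5′ to 3′ on the gene's own strand, with CHR cores (TTTGAA or TTCGAA, or TTCAAA on the other strand) and CCAAT boxes (CCAAT, or ATTGG on the other strand) in capitals. Ube2c lies at chr2:164769779-164769958 on the plus strand, Ccnb2 at chr9:70421525-70421704 on the minus strand, Top2a at chr11:99024160-99024339 on the minus strand, Pttg1 at chr11:43425952-43426131 on the minus strand and Nusap1 at chr2:119618148-119618327 on the plus strand (GRCm38.p6).
Ube2c: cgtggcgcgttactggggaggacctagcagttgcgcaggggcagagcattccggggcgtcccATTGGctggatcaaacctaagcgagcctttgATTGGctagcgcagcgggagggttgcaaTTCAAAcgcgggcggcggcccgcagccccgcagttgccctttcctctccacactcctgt
Ccnb2: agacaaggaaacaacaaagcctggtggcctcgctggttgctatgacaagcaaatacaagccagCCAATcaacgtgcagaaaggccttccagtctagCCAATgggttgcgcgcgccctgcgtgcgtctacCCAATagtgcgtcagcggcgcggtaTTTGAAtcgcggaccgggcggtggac
Top2a: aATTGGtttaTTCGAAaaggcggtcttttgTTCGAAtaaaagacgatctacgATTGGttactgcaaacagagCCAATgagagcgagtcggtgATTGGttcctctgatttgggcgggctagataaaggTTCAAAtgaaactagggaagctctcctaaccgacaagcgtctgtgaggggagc
Pttg1: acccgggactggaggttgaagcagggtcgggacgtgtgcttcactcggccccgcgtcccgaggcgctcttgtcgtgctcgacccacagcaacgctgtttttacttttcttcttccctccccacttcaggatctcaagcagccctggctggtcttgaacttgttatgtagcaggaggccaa
Nusap1: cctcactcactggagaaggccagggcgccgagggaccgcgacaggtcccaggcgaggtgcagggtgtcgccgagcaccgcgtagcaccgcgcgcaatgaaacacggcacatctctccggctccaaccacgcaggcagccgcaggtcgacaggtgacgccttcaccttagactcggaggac

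The Ube2c promoter holds CCAAT boxes 88 and 57 bases before the start and a CHR core 29 bases before it. Ccnb2 has 3 CCAAT boxes, beginning 87, 54 and 21 bases before the start, and a CHR core 5 bases after it. In Top2a there are 4 CCAAT boxes and 3 CHR cores, the nearest of which begins 23 bases before the start. Neither word occurs in the windows of Pttg1 and Nusap1, nor in the full 300-base promoters of these genes. The same held for Birc5, Mad2l1 and Nuf2, whose transcripts rose by log2 fold changes of 0.92, 0.78 and 0.69 in white cells and 0.95, 0.84 and 0.70 in brown cells. Whether these letters go with the size of the change was not tested. Ccnb1 and Cenpe lacked a CHR core and held CCAAT. Ndc80, Kif2c and Anln held a CHR core and lacked CCAAT.

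**Figure D2:**
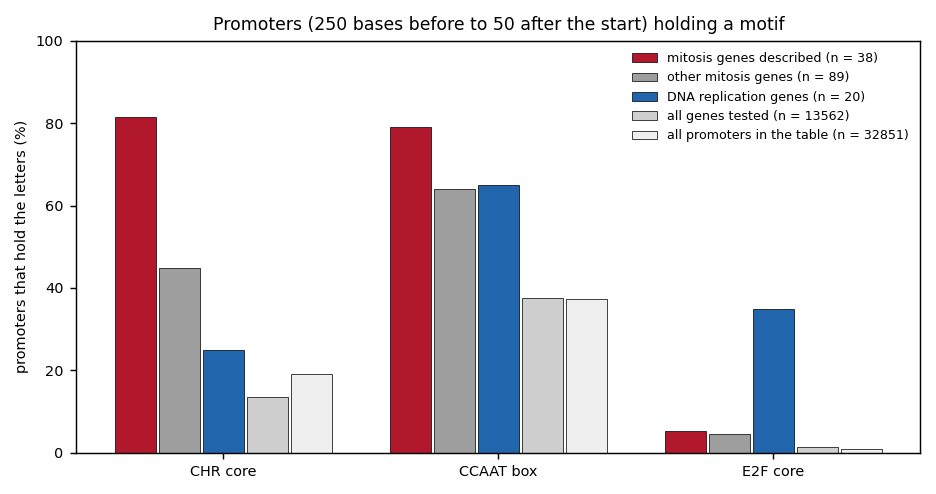
Share of promoters (y axis, percent, 250 bases before to 50 after the start) that hold a CHR core, a CCAAT box or an E2F core, in 5 sets of genes with the number of promoters in the legend. A CHR core stood in 81.6% of the mitosis genes' promoters and in 25% of those of DNA replication genes, and an E2F core in 5.26% and in 35%.

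Genes of mitotic entry were called higher in 7 of 7 cases in each depot, with a median log2 fold change of 0.88 in white and 0.84 in brown cells. Ccnb2, a B-type cyclin that activates Cdk1, had 84.5, 85.5, 87.7 and 88.7 RPKM in white Fgf8b and 37.4, 39.7, 41.3 and 42.2 RPKM in white control libraries. In brown cells it had 62.4, 63.8, 67.8 and 68.7 RPKM with Fgf8b and 35.4, 36.3, 36.4 and 38.02 RPKM in controls. The groups did not overlap in either depot, and the rise was larger in white cells: log2 1.11 ± 0.04 (SE) in white cells and 0.84 ± 0.04 in brown cells, with limma adjusted p of 4.22e-14 and 1.93e-12. Cdk1, the kinase itself, had 83.2, 86.6, 86.9 and 87.1 RPKM in white Fgf8b and 44.1, 45.5, 47.5 and 48.1 RPKM in white control libraries. Brown Fgf8b libraries held 93.5, 94.5, 101 and 102 RPKM of it and brown control libraries 47.4, 48.2, 49.2 and 50.4 RPKM. Every Fgf8b library was above every control library, by log2 0.89 ± 0.04 in white and 0.96 ± 0.04 in brown cells.

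Ccna2, the cyclin of S phase and G2, had the highest mean level of the entry group over all 16 libraries, as the highest level is meant below too, and held 86.1 ± 1.66 RPKM in white Fgf8b and 53.3 ± 0.806 in white control libraries, and 94.4 ± 1.15 RPKM in brown Fgf8b and 56.4 ± 3.71 in brown control libraries (SD, n = 4 each). The phosphatase Cdc25b, which acts on Cdk1 at entry, rose least of the group in white cells, with 21.9, 22.6, 22.9 and 23.2 RPKM in Fgf8b and 13.8, 14.2, 14.5 and 15 RPKM in control libraries (log2 0.62 ± 0.04). In brown cells the smallest rise was that of Cdc25c, another such phosphatase. It had 10.04, 10.6, 11.2 and 11.6 RPKM in brown Fgf8b and 6.97, 7.03, 7.34 and 7.76 RPKM in brown control libraries, a log2 change of 0.58 ± 0.06, against 0.86 ± 0.06 in white cells. Foxm1, the transcription factor of late cell cycle genes, rose by 0.88 ± 0.04 in white cells, where it averaged 40.3 ± 0.998 RPKM with Fgf8b and 21.6 ± 0.3101 RPKM in controls, and by 0.94 ± 0.04 in brown cells. Ccnb1 rose by 1.0 ± 0.09 in white and 0.91 ± 0.09 in brown cells. It shares 27.8% of its 31-base words with other genes, 22.9% with the pseudogene Ccnb1-ps, and 12.04% of those of Ccna2 and 13.3% of those of Cdc25c are shared, so reads may have been split or added there.

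All 5 mitotic kinases and passenger proteins were called higher in each depot, with medians of 0.92 in white and 0.97 in brown cells. Birc5 (survivin), a small subunit of the chromosomal passenger complex, had the highest level of the 5. Its values were 91.5, 91.7, 93.1 and 94.1 RPKM in white Fgf8b and 45.01, 49.3, 49.5 and 51.96 RPKM in white control libraries, and 91.2, 93.7, 95.2 and 95.3 RPKM in brown Fgf8b and 46.5, 49.1, 49.1 and 49.8 RPKM in brown control libraries. The 2 depots held nearly the same amounts under each treatment. Aurkb, the kinase of that complex, rose by 1.0 ± 0.04 in white cells, with 41.8, 43.1, 44.1 and 44.4 RPKM in Fgf8b and 20.98, 21.2, 21.2 and 23.2 RPKM in control libraries. Its change in brown cells was 0.97 ± 0.04, a difference between depots of -0.03 ± 0.06 with a 95% interval of -0.16 to 0.09. Incenp, the scaffold of the complex, had the smallest rise of the 5, 0.67 ± 0.04 in white and 0.59 ± 0.04 in brown cells: it had 30, 30.4, 31.4 and 31.5 RPKM in white Fgf8b and 18.8, 19.4, 19.7 and 19.9 RPKM in white control libraries, and 33.4, 34.4, 34.9 and 35.5 RPKM in brown Fgf8b and 21.7, 22.3, 23.2 and 23.7 RPKM in brown control libraries. Aurka, a kinase of the spindle poles, reached 56.5 ± 2.77 RPKM in brown Fgf8b and 27.99 ± 1.92 RPKM in brown control libraries, the largest change of the group there (1.01 ± 0.05). Plk1, a kinase active from entry to cytokinesis, rose by 0.88 ± 0.06 in white and 0.99 ± 0.06 in brown cells, where control library 15 was low at 24.1 RPKM against 29.2 to 30.1 RPKM in the other 3 controls. Of the words of Plk1, 18.7% are shared with other genes.

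The 4 checkpoint genes were all called higher in each depot, with medians of 0.87 in white and 0.92 in brown cells. Bub1, a kinase at unattached kinetochores, had 19.1, 19.4, 19.8 and 20.3 RPKM in white Fgf8b and 9.498, 9.5, 9.56 and 10.03 RPKM in white control libraries. In brown cells it had 20.98, 22.02, 22.3 and 23.4 RPKM with Fgf8b and 9.71, 10.02, 10.2 and 11.7 RPKM in controls, and it changed most of the 4 in both depots (1.02 ± 0.06 in white, 1.09 ± 0.06 in brown cells). Bub1b (BubR1), a subunit of the mitotic checkpoint complex, had 39.9, 40.2, 41.6 and 41.8 RPKM in white Fgf8b and 22.7, 23.6, 23.6 and 24.1 RPKM in white control libraries, and 36.5, 37.6, 37.9 and 38.8 RPKM in brown Fgf8b and 20.7, 21.01, 21.4 and 22.4 RPKM in brown control libraries. Its responses were nearly equal, 0.81 in white and 0.82 in brown cells, with a 95% interval of the difference of -0.10 to 0.11. Ttk (Mps1), the kinase that starts the checkpoint, varied little within a group: the 4 brown Fgf8b libraries held 13.6, 14.1, 14.2 and 14.2 RPKM, and the 4 brown control libraries 6.99, 7.04, 7.04 and 7.13 RPKM. Mad2l1 (Mad2), the protein that binds Cdc20 while the checkpoint is on, had the highest level, 47.3 ± 1.84 RPKM in brown Fgf8b and 27.03 ± 2.22 RPKM in brown control libraries, and rose by 0.78 ± 0.06 in white and 0.84 ± 0.06 in brown cells.

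In brown cells the 4 anaphase genes held both the largest and the smallest change of the 45. Ube2c, the enzyme that passes the first ubiquitin to targets of the APC/C, had 105, 105, 106 and 106 RPKM in white Fgf8b and 47.9, 48.2, 48.5 and 51.1 RPKM in white control libraries, a log2 change of 1.11 ± 0.06 (fold 2.15). Brown Fgf8b libraries had 105, 112, 114 and 116 RPKM and brown control libraries 41.7, 48.4, 50.1 and 51.9 RPKM, a change of 1.22 ± 0.06 (fold 2.34), which was the largest of the 45 in brown cells. Of its words, 25.3% are shared with other genes, 17.7% with Tnnc2. Pttg1 (securin), the inhibitor of separase that the APC/C removes at anaphase, changed least of the 45 in both depots. White Fgf8b libraries had 29.9, 34.3, 35.6 and 37.1 RPKM of it and white control libraries 25.2, 26.5, 27.9 and 28.6 RPKM, which did not overlap (log2 0.33 ± 0.08, limma adjusted p 0.00108). In brown cells the values were 25.02, 26.2, 28.4 and 33.02 RPKM with Fgf8b and 23.5, 26.5, 27.4 and 28.4 RPKM in controls, which overlapped, and the change of 0.08 ± 0.08 was not called (limma adjusted p 0.358, 95% interval -0.08 to 0.25) and became -0.0081 with upper-quartile scaling and 0.03 without brown control library 15 (limma adjusted p 0.774). Espl1 (separase), the protease that securin holds back, had 9.12, 9.29, 9.46 and 9.703 RPKM in white Fgf8b and 4.57, 4.57, 4.64 and 5.13 RPKM in white control libraries, and 9.44, 10.7, 10.7 and 11.1 RPKM in brown Fgf8b and 4.44, 4.84, 5.05 and 5.14 RPKM in brown control libraries. Separase thus rose by 0.90 ± 0.08 in white and 1.02 ± 0.08 in brown cells where its inhibitor changed by 0.33 in white and 0.08 in brown cells. Cdc20, the co-activator of the APC/C, rose by 0.65 ± 0.04 in white and 0.64 ± 0.04 in brown cells, and 26.7% of its words are shared with other genes.

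**Figure D3:**
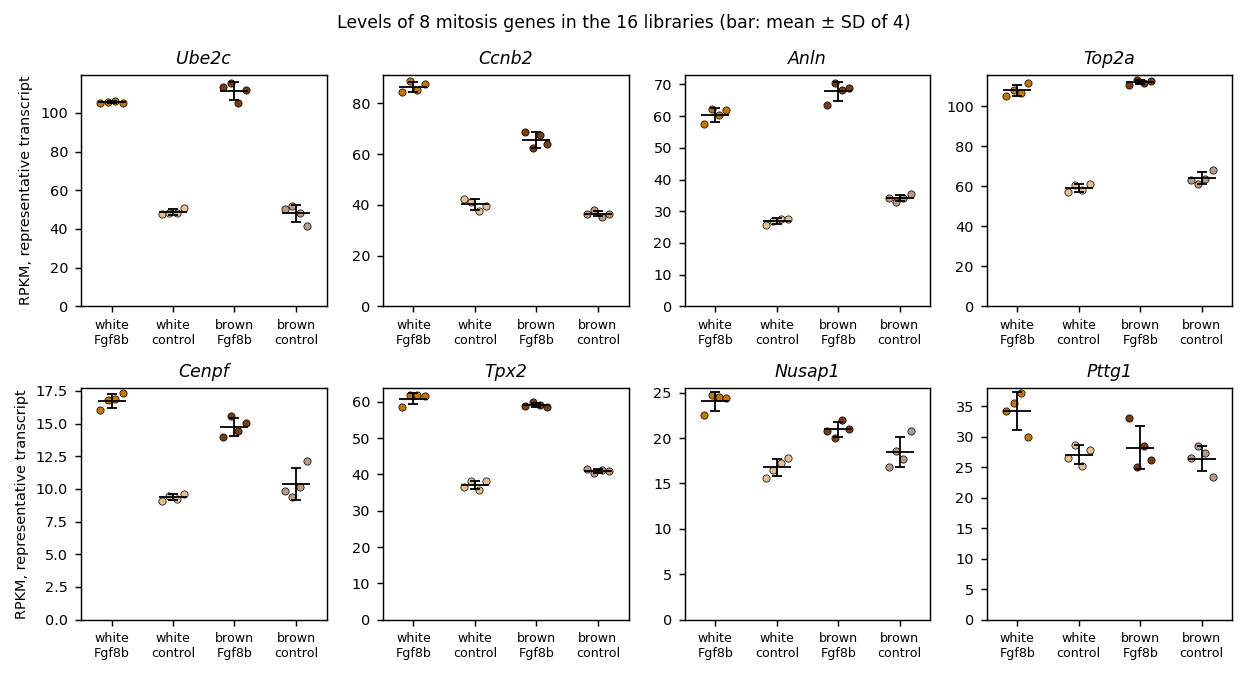
Level of 8 mitosis genes in each of the 16 libraries (y axes, RPKM of a representative transcript, from 0), with the mean and SD of the 4 libraries of each group. The groups do not overlap between Fgf8b and control for the 6 genes other than Nusap1 and Pttg1, and these last overlap in brown cells.

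At the centromere and kinetochore 6 of 6 genes were called higher in each depot, with medians of 0.73 in white and 0.55 in brown cells. Cenpa, the histone H3 variant that marks centromeres, rose most. It had 67.5, 70.2, 71.2 and 72.03 RPKM in white Fgf8b and 32.4, 33.2, 34.7 and 35.99 RPKM in white control libraries, and 64.6, 65.8, 66.1 and 68.9 RPKM in brown Fgf8b and 29.2, 33.9, 35.8 and 35.95 RPKM in brown control libraries (1.05 ± 0.06 in white and 1.0 ± 0.06 in brown cells). Cenpf, a large protein of the outer kinetochore, had 16, 16.8, 16.9 and 17.3 RPKM in white Fgf8b and 9.09, 9.26, 9.49 and 9.57 RPKM in white control libraries. Its values in brown cells were 13.99, 14.5, 15.1 and 15.6 RPKM with Fgf8b and 9.37, 9.84, 10.1 and 12.1 RPKM in controls, closer together than in white cells (0.52 ± 0.07 in brown, 0.81 ± 0.07 in white cells), and the change in brown cells was 0.60 without control library 15. Cenpe, a kinesin that moves chromosomes to the middle of the spindle, rose by 0.72 ± 0.06 in white and 0.48 ± 0.06 in brown cells, with brown control library 15 high at 14.03 RPKM against 11.8 to 11.9 RPKM in the other 3. Of the 3 subunits of the Ndc80 complex, which holds microtubule ends, in brown cells Nuf2 rose by 0.70 ± 0.06, Ndc80 by 0.59 ± 0.05 and Spc25 by 0.47 ± 0.06, the smallest of the group, with 45.2, 46.3, 48.3 and 48.9 RPKM in brown Fgf8b and 30.9, 32.1, 33.5 and 35.9 RPKM in brown control libraries. In white cells Nuf2 rose by 0.69 ± 0.06, Ndc80 by 0.74 ± 0.05 and Spc25 by 0.68 ± 0.06, and Spc25 had 40.4, 43.9, 46.1 and 46.5 RPKM in Fgf8b and 25.4, 28.01, 28.5 and 30.4 RPKM in control libraries.

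The 10 spindle genes were called higher in 10 of 10 cases in each depot, with medians of 0.73 in white and 0.61 in brown cells. Kif20a, a kinesin of the central spindle, had the highest level. It had 76.5, 77.3, 77.5 and 77.8 RPKM in white Fgf8b and 46.7, 46.8, 46.8 and 48.8 RPKM in white control libraries, and 78.6, 79.04, 80.4 and 80.4 RPKM in brown Fgf8b and 47.03, 50.7, 53.6 and 53.7 RPKM in brown control libraries. Of its words 26.7% are shared with Cdc23, so its counts are less certain. Kif2c, a kinesin that shortens microtubules, rose most of the group, by 1.04 ± 0.05 in white and 1.04 ± 0.05 in brown cells. Its levels were 30.9, 30.96, 31.1 and 32.7 RPKM in white Fgf8b and 14.4, 15.6, 15.8 and 17.5 RPKM in white control libraries, and 32.8, 32.9, 34.2 and 34.5 RPKM in brown Fgf8b and 16.2, 16.4, 16.6 and 17.2 RPKM in brown control libraries. The responses of the depots differed by 0.00 ± 0.07, with a 95% interval of -0.15 to 0.15. At the other end stood Nusap1, which bundles microtubules near chromosomes. White Fgf8b libraries held 22.5, 24.4, 24.5 and 24.8 RPKM of it and white control libraries 15.6, 16.5, 17.2 and 17.8 RPKM (log2 0.52 ± 0.06). Brown Fgf8b libraries held 20.04, 20.8, 21.01 and 21.98 RPKM and brown control libraries 16.8, 17.7, 18.6 and 20.7 RPKM, so that the highest control, library 15, lay within the range of the Fgf8b libraries (log2 0.20 ± 0.06, limma adjusted p 0.00584). With upper-quartile scaling the change of Nusap1 in brown cells was 0.11 and was not called (limma adjusted p 0.122), and without control library 15 it was 0.26.

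Among the rest of the spindle group, Prc1, which cross-links the midzone microtubules, averaged 74.2 ± 2.65 RPKM in white Fgf8b and 44.04 ± 2.45 RPKM in white control libraries, and 76.2 ± 1.07 RPKM in brown Fgf8b and 50.9 ± 0.849 RPKM in brown control libraries. Tpx2, the activator of Aurka on spindle microtubules, had 58.5, 61.5, 61.8 and 61.8 RPKM in white Fgf8b and 35.8, 36.5, 38.1 and 38.1 RPKM in white control libraries. It had 58.6, 58.7, 59.03 and 60.05 RPKM in brown Fgf8b and 40.4, 40.98, 41.1 and 41.5 RPKM in brown control libraries, so its brown controls were above its white controls while the Fgf8b libraries of both depots lay at 58.5 to 61.8 RPKM. Dlgap5 (HURP), which steadies kinetochore fibres, rose by 0.94 ± 0.05 in white and 0.83 ± 0.05 in brown cells. Kif11, the motor that pushes the poles apart, rose by 0.72 ± 0.04 in white and 0.63 ± 0.04 in brown cells, Kif23, the motor of centralspindlin, by 0.60 ± 0.05 in white and 0.68 ± 0.05 in brown cells, and the chromokinesin Kif4 by 0.55 ± 0.05 in white and 0.57 ± 0.05 in brown cells. Hmmr, a spindle-associated receptor of hyaluronan, rose by 0.74 ± 0.08 in white and 0.47 ± 0.08 in brown cells. Shared words came to 12.5% for Prc1 and 15.7% for Kif4, and outside this group to 12.5% for Ncapg and 10.7% for Ndc80.

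Each of the 6 genes of chromosome structure was called higher in each depot, with medians of 0.75 in white and 0.74 in brown cells. Top2a, the topoisomerase that untangles sister chromatids, had the highest mean level of the 45, with 105, 107, 108 and 112 RPKM in white Fgf8b and 56.9, 57.98, 60.6 and 61.1 RPKM in white control libraries. In brown cells it had 110.5, 112, 113 and 113 RPKM with Fgf8b and 61.1, 63.4, 63.5 and 68.01 RPKM in controls, and it rose by 0.86 ± 0.03 in white and 0.80 ± 0.03 in brown cells. Mki67, which coats mitotic chromosomes and is the antigen of the Ki-67 stain for dividing cells, had 61.4, 62.7, 64.8 and 65.4 RPKM in white Fgf8b and 35.99, 37.3, 40.3 and 40.9 RPKM in white control libraries. Its values were 56.2, 57.9, 59.5 and 60.2 RPKM in brown Fgf8b and 38.2, 38.4, 38.6 and 40.4 RPKM in brown control libraries, and its rise of 0.58 ± 0.04 was the smallest of the 6 in brown cells (0.73 ± 0.04 in white cells).

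The 4 condensin subunits were Smc2 and Smc4, the ATPases of both condensins, and Ncapg and Ncapd2, which belong to condensin I. Ncapg rose most in each depot: 27.2, 29.1, 29.2 and 29.4 RPKM in white Fgf8b and 14.2, 14.2, 14.7 and 15 RPKM in white control libraries, and 27.9, 28.6, 29.7 and 29.8 RPKM in brown Fgf8b and 13.7, 14.1, 15.2 and 16.4 RPKM in brown control libraries (0.96 ± 0.05 in white and 0.92 ± 0.05 in brown cells). Smc4 rose least in white cells, where it had 69.6, 72.8, 74.02 and 74.8 RPKM with Fgf8b and 47.1, 47.2, 47.9 and 48.4 RPKM in controls (0.61 ± 0.06). In brown cells it had 69.9, 71.01, 73.8 and 74.5 RPKM with Fgf8b and 43.98, 44.4, 46.3 and 55.9 RPKM in controls, the highest control being library 15, and rose by 0.62 ± 0.06, or by 0.72 without that library. Smc2 was the member with the most positive difference between depots. It rose by 0.80 ± 0.06 in brown and 0.62 ± 0.06 in white cells (difference 0.18 ± 0.08, limma adjusted p 0.0853, not called), and its brown controls included library 15 at 27.5 RPKM against 21.3 to 22.2 RPKM in the other 3.

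All 3 genes of cytokinesis were called higher in each depot. Anln (anillin), the scaffold of the contractile ring, had 57.4, 60.3, 61.9 and 62.3 RPKM in white Fgf8b and 25.7, 26.97, 27.6 and 27.7 RPKM in white control libraries, a log2 change of 1.16 ± 0.04 (fold 2.24) and the largest of the 45 in white cells. In brown cells it had 63.5, 68.4, 68.95 and 70.5 RPKM with Fgf8b and 32.98, 34.2, 34.3 and 35.3 RPKM in controls (0.97 ± 0.04, fold 1.97). Brown controls thus held more Anln than white controls. Racgap1, the partner of Kif23 in centralspindlin, rose least of the 3, with 60.2, 61.3, 61.8 and 64.1 RPKM in white Fgf8b and 37.8, 37.8, 37.8 and 39.8 RPKM in white control libraries (0.70 ± 0.03), and 59.4, 61.9, 62.6 and 63.6 RPKM in brown Fgf8b and 39.2, 40.4, 40.7 and 42.8 RPKM in brown control libraries (0.61 ± 0.03). Ect2, the exchange factor that switches on RhoA at the cell's equator, rose by 0.80 ± 0.06 in white and 0.77 ± 0.06 in brown cells.

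The response was next compared between the depots, as the change in brown cells minus the change in white cells, which does not depend on a constant offset between the depots. Of the 45 genes, 8 were called lower in this difference and 0 higher, where 17.8% of all genes tested were called lower and 17.1% higher (34.9% either way), so the share called lower was near that of all genes. The median difference was -0.03 over the 45 and -0.01 over all genes tested. The 8 genes were Nusap1 (-0.32 ± 0.08), Cenpf (-0.30 ± 0.09), Cdc25c (-0.28 ± 0.09), Ccnb2 (-0.26 ± 0.06), Cenpe (-0.23 ± 0.09), Tpx2 (-0.20 ± 0.04), Anln (-0.19 ± 0.05) and Prc1 (-0.17 ± 0.06), with limma adjusted p between 0.00109 for Tpx2 and 0.0493 for Cenpe. All 8 rose in each depot, and rose less in brown cells. With each library left out in turn, 7 of the 8 were called every time, and Cenpe was called in 5 of 16 fits. Without brown control library 15, 13 genes were called: 7 of the 8 again, without Cenpe and with differences of -0.29 (Cdc25c) to -0.16 (Prc1), and Pttg1 (-0.30), Hmmr (-0.17), Cenpa (-0.14) and Kif20a (-0.11) added as lower, and Smc2 (0.25) and Smc4 (0.11) as higher. Calls over all genes tested rose in that fit too, to 5875 of 15152 from 5313 of 15220.

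**Figure D4:**
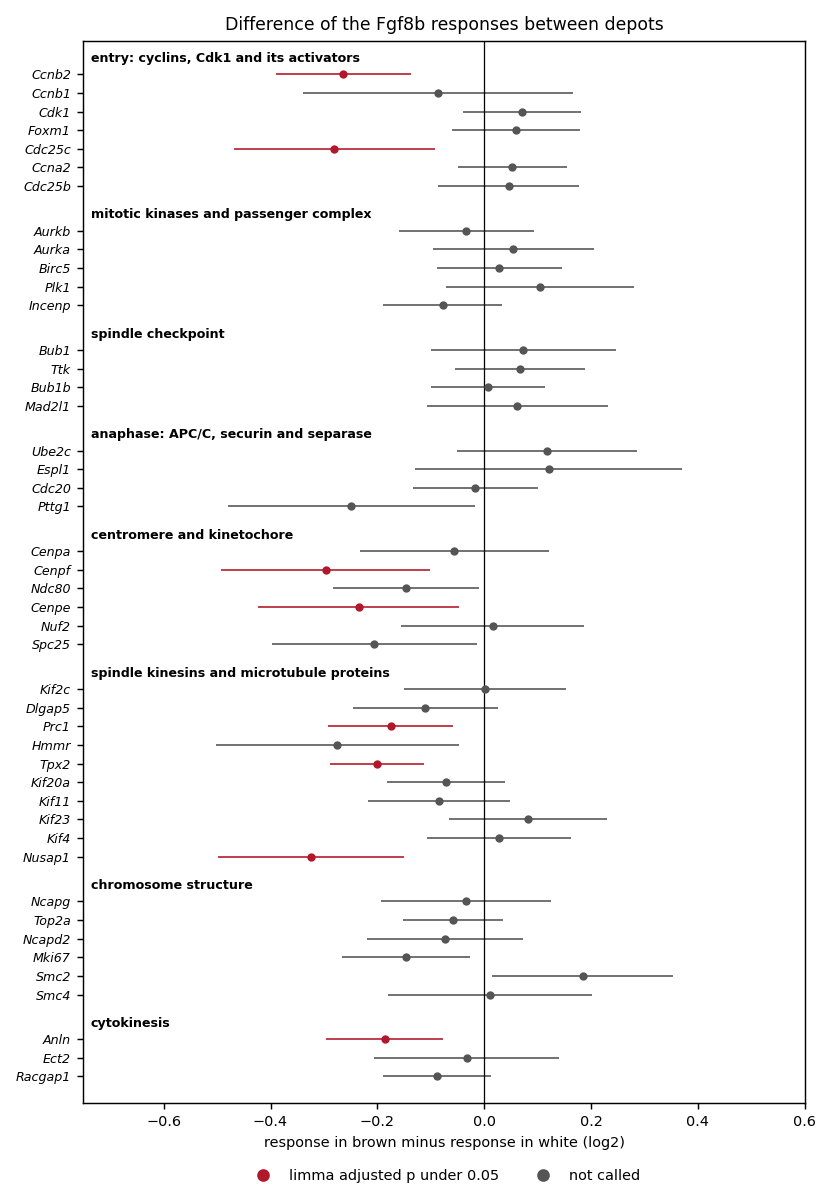
Change with Fgf8b in brown cells minus the change in white cells (x axis, log2) for each of the 45 mitosis genes, with 95% confidence intervals from limma, red where the adjusted p was under 0.05. The 8 called genes lie between -0.32 and -0.17, and no gene was called above 0.

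The depots were also compared at the level of each treatment. The white and the brown columns of the table may have been made separately, since 145 of 299 transcript accessions that are listed more than once have unequal values in the white libraries and 0 of 299 in the brown ones. Every white library also has a lower number (up to 8) than every brown library (from 9), so depot cannot be told apart from what goes with the numbering. Under control conditions 16 of 45 genes were called higher and 2 lower in brown than in white cells, where 18.1% of all genes tested were called higher and 15.9% lower (33.9% either way). The largest differences were those of Hmmr (log2 0.35 ± 0.08), Anln (0.34 ± 0.04) and Ccnb1 (0.31 ± 0.09). Anln averaged 34.2 ± 0.965 RPKM in brown control and 26.99 ± 0.9197 RPKM in white control libraries. The 2 genes called lower were Ccnb2 (-0.14 ± 0.04) and Bub1b (-0.12 ± 0.04), and the median over the 45 was 0.09. With a fit over only the 2 groups of controls, 11 genes were called, all 11 higher in brown cells, and without brown control library 15 19 were called. Of all genes tested, 4381 of 15220 were called in the first of these fits and 5272 of 15152 in the second.

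With Fgf8b 16 of 45 genes were called higher and 8 lower in brown than in white cells, where 26.9% of all genes tested were called higher and 24.7% lower (51.6% either way). Those lower were Ccnb2, Cdc25c, Bub1b, Pttg1, Cenpe, Cenpf, Nusap1 and Mki67. Ccnb2 differed most of the 45: it averaged 65.7 ± 3.03 RPKM in brown Fgf8b and 86.6 ± 1.94 RPKM in white Fgf8b libraries, which did not overlap (log2 -0.40 ± 0.04, limma adjusted p 3.14e-07). Pttg1 averaged 28.2 ± 3.52 RPKM in brown Fgf8b and 34.2 ± 3.09 RPKM in white Fgf8b libraries (-0.29 ± 0.08), against 26.4 ± 2.12 RPKM in brown control and 27.1 ± 1.505 RPKM in white control libraries. On the higher side stood Smc2 (0.27 ± 0.06), Kif4 (0.24 ± 0.05) and Ect2 (0.22 ± 0.06). Without brown control library 15, 27 genes were called in place of 24. Over all genes tested, 8513 of 15152 were called in that fit, in place of 7859 of 15220.

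A list of 90 other mitosis genes gave a like picture with more spread. In white cells 78 of 90 were called higher and 2 lower, with a median log2 fold change of 0.58, where 36.3% of all genes tested were called higher and 29.5% lower. In brown cells 77 were called higher and 4 lower, with a median of 0.55, where 36.7% of all genes were called higher and 34.7% lower. Median-of-ratios scaling called 4689 of all 15231 genes tested higher and 5152 lower in white cells, and 5010 higher and 5819 lower in brown cells. Upper-quartile scaling called 4736 of all 15236 genes tested higher and 5105 lower in white cells, and 4674 higher and 6111 lower in brown cells. Of the 90, these scalings called 71 and 71 higher and 2 and 2 lower in white cells. In brown cells they called 72 and 71 of the 90 higher and 6 and 6 lower. The largest rise in each depot was that of Pbk, a mitotic kinase, at 1.29 ± 0.05 in white and 1.26 ± 0.05 in brown cells, with 41.5 ± 2.12 RPKM in white Fgf8b and 17.1 ± 0.650 RPKM in white control libraries, and 44.2 ± 0.977 RPKM in brown Fgf8b and 19.0 ± 0.786 RPKM in brown control libraries. Cep55, which acts at the last cut between daughter cells, rose by 1.15 ± 0.05 and Spag5 (astrin) by 1.03 ± 0.05 in white cells. Trip13, an ATPase of the checkpoint, rose by 1.18 ± 0.06 and the kinesin Kif15 by 1.04 ± 0.05 in brown cells.

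A few genes of the list went down. Psrc1, a microtubule-binding protein that is also known as a target of p53, fell by 1.05 ± 0.06 on the log2 scale in white cells and by 1.07 ± 0.06 in brown cells. It had 10.8 ± 0.551 RPKM in white Fgf8b and 22.6 ± 1.12 RPKM in white control libraries, and 13.3 ± 1.15 RPKM in brown Fgf8b and 27.6 ± 1.32 RPKM in brown control libraries. Haus4, a subunit of augmin, fell by 0.24 ± 0.05 in white and 0.21 ± 0.05 in brown cells. Anapc2 and Cdc16, subunits of the APC/C, fell in brown cells, Anapc2 by 0.15 ± 0.03. In white cells Anapc2 went the other way and was called higher (0.19 ± 0.03, limma adjusted p 4.4e-05), and Cdc16 was not called. Anapc7, another subunit, had the third lowest change in white cells and was not called there (-0.04 ± 0.05, limma adjusted p 0.544). The 13 subunits and regulators of the APC/C had a median change of 0.14 in white and 0.09 in brown cells. In white cells 8 of 13 were called higher and 0 lower, where 36.3% of all genes tested were called higher and 29.5% lower. In brown cells 7 were called higher and 2 lower, where 36.7% of all genes tested were called higher and 34.7% lower. Upper-quartile scaling gave a median of -0.0011 in brown cells, with 4 of 13 called higher and 3 lower. With that scaling 4674 of all 15236 genes tested were called higher and 6111 lower in brown cells. The co-activator Cdc20 and the enzyme Ube2c of the APC/C, among the 45, stood well above the medians of these 13. Wee1 and Pkmyt1, the kinases that hold Cdk1 inactive, were not called in either depot, with changes of 0.02 and 0.03 in white and -0.03 and 0.02 in brown cells, and all these were below 0 under median-of-ratios and upper-quartile scaling.

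The 22 genes of DNA replication, which act before mitosis, were called higher in 19 cases in white cells and in 22 cases in brown cells, with medians of 0.36 and 0.50. Of all genes tested 36.3% were called higher in white and 36.7% in brown cells. Under either of the other scalings 18 were called higher in white cells and Mcm6, a subunit of the replicative helicase, lower. Over all genes tested, 4689 of 15231 (median-of-ratios) and 4736 of 15236 (upper-quartile) were called higher in white cells. In the difference between depots 13 of 22 were called higher and 0 lower in brown cells, where 17.1% of all genes tested were called higher and 17.8% lower. The mitosis genes had 0 of 45 higher and 8 lower, and their share called lower was near that of all genes. Rrm2, a subunit of ribonucleotide reductase, rose by 1.20 in brown and 0.81 in white cells, and Cdt1, which licenses origins, changed by 0.51 in brown cells (called) and 0.03 in white cells (not called, and -0.04 with median-of-ratios scaling). The summed level of these 22 genes was 953 ± 12.8 RPKM in white Fgf8b and 777 ± 16.2 RPKM in white control libraries, and 1057 ± 8.18 RPKM in brown Fgf8b and 744 ± 11.6 RPKM in brown control libraries. Whether the lists differ from each other was not tested.

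**Figure D5:**
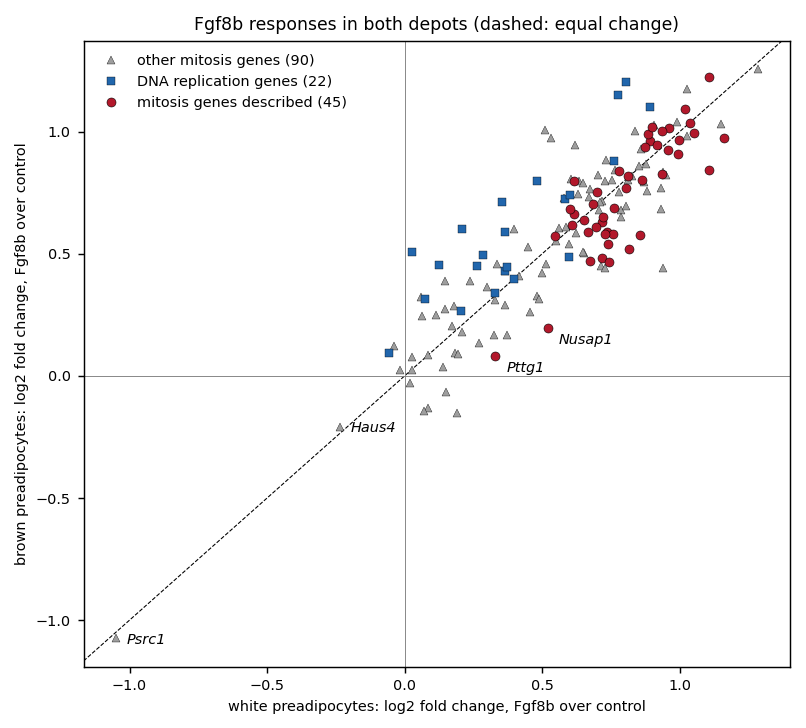
Log2 fold change with Fgf8b in white cells (x axis) and in brown cells (y axis) of the 45 mitosis genes (circles), 90 other mitosis genes (triangles) and 22 DNA replication genes (squares), with a dashed line of equal change. The mitosis genes lie on both sides of the line with Nusap1 and Pttg1 below it, most replication genes lie above it, and Psrc1 and Haus4 are lower with Fgf8b in both depots.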

How the data were processed

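RNA was taken up in Trisure, purified on columns and made into libraries with the TruSeq RNA v2 kit, per the labels' protocols. CASAVA and bcl2fastq are named without versions, per the submitters' processing notes. Aligner, build, annotation and strandedness: not given in the sources used here. Without strand, reads of antisense partners are not separable. The authors deposited 1 table of RPKM values with 168326 transcript entries and 16 columns, 0 of them without a sample. All its values are numeric, and 0 are below 0. Depth was recovered because 95.7% to 96% of values up to 50 reads fell within 0.1 of a whole read.

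Entries lacking a symbol (23178) or sharing an accession (808) were left out, 0 of them from the 45 genes. Levels are RPKM of the RefSeq transcript with the highest mean. Fold changes are on log2(RPKM + 0.5) of a gene's summed entries (2 to 21 per member), which understates changes of low genes. The 15220 genes that reached 0.5 RPKM in 4 or more libraries were fitted over all 16 libraries with limma 3.58.1 in R 4.3.3 (trend, robust), with two-sided tests adjusted over all genes by Benjamini-Hochberg and called at 0.05. The script was tested on simulated data. Alternatives were other pseudocounts, filters, scalings and transcript choices, a fit of only the groups compared, and each library left out. Shared words of 31 bases were counted in GENCODE M21. Per role, the genes named had the highest level, the largest or smallest change, no call, or a call in the difference between depots, and the remaining members are given more briefly. From the 90 other genes, the 3 largest changes each way in each depot were named; further genes of the other lists were named after their values were seen. The members and lists were chosen with earlier results of these data known. Software: matplotlib 3.10.9, scipy 1.17.1, pandas 2.3.3, numpy 2.4.6, Python 3.11.15.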

Additional observations from a re-analysis of the deposited data

Results flagged for a closer look

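In each of the 4 groups the highest and lowest library of each of the 45 genes was compared with the other 3 (Dixon's criterion). Of 180 such groups 15 held a library apart, where about 1 in 20, or 9, would by chance. In white Fgf8b libraries, library 2 was low for Cdk1 (83.2 RPKM, the others 86.6 to 87.1), Tpx2 (58.5, the others 61.5 to 61.8) and Ncapg (27.2, the others 29.1 to 29.4), and library 8 was high for Kif2c (32.7, the others 30.9 to 31.1). In white control libraries, library 1 was high for Foxm1 (22.1, the others 21.4 to 21.5) and Aurkb (23.2, the others 21.0 to 21.2), library 3 for Espl1 (5.13, the others 4.57 to 4.64) and Racgap1 (39.8, the others 37.8), and library 7 for Bub1 (10.03, the others 9.50 to 9.57), Ube2c (51.1, the others 47.9 to 48.5) and Kif20a (48.8, the others 46.7 to 46.8). Among brown Fgf8b libraries, library 10 was low for Ttk (13.6, the others 14.1 to 14.2). Among brown control libraries, library 15 was low for Plk1 (24.1, the others 29.2 to 30.1) and high for Cenpe (14.03, the others 11.8 to 11.9) and Smc2 (27.5, the others 21.3 to 22.2).

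The responses of the 2 depots differed by limma's interaction term for 8 of 45 genes, each with the smaller rise in brown cells (log2 difference, brown minus white): -0.32 for Nusap1, -0.30 for Cenpf, -0.28 for Cdc25c, -0.26 for Ccnb2, -0.23 for Cenpe, -0.20 for Tpx2, -0.19 for Anln and -0.17 for Prc1. In this difference 17.8% of all genes tested were called lower and 17.1% higher. The share of the 45 called lower was near that of all genes. Cenpe was called in 5 of the 16 fits that left out a library.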

How the results depend on the processing

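No paired analysis was possible because no library number is shared between groups and no label ties neighbouring numbers. With each library left out in turn, the genes called numbered 45 to 45 for Fgf8b in white cells, 44 to 44 for Fgf8b in brown cells, 15 to 19 between control depots, 20 to 27 between depots with Fgf8b and 7 to 13 for the difference of the responses, the 13 being the fit without brown control library 15 (2 higher, 11 lower). Without that library, calls over all genes tested rose for this difference too, to 5875 of 15152 from 5313 of 15220. A fit of only the groups compared called 11 genes between control depots in place of 18, and 4381 of all 15220 genes tested in place of 5167. Upper-quartile scaling turned the change of Pttg1 in brown cells to -0.0081 (limma adjusted p 0.932), and no other change with Fgf8b of the 45 turned its direction under the settings run; it also took the call from Nusap1 in brown cells (0.11, adjusted p 0.122). Summed over all entries, the members' level was 15150 RPKM in white Fgf8b, 8726 RPKM in white control, 15590 RPKM in brown Fgf8b and 9330 RPKM in brown control libraries. After median-of-ratios scaling it was 14820, 8930, 15270 and 9516 RPKM in the same order of groups, after upper-quartile scaling 8964, 15030 and 9574 RPKM in the last 3 of them, and for the representative transcripts 2026, 1151, 2080 and 1221 RPKM. Of the calls by gene, 11 of 128 in the difference of the responses were lost in the fits that leave out a library and 3 of 72 under the other settings, and 0 of 720 and 0 of 450 for Fgf8b in white cells. The cause of these moves was not tested beyond the library left out and the construction of each setting. At least 186 reads stood behind each member's value, and counting error weighs most on the genes with the fewest reads, Cdc25c, Ccnb1 and Pttg1.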
